A study of Drosophila sechellia with 6 samples.

Results

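The maltase and amylase genes of *D. sechellia* are described here as every entry of the expression table whose gene name starts with Mal- or with Amy. This rule took 11 of 17275 entries and used names only, no measured value. Any maltase or amylase listed only by an identifier is left out, so rankings, totals and the term Mal-A cluster refer to named entries. The entries cover 6 maltases of the Mal-A cluster, the maltase *Mal-B2*, the amylases *Amy-p* and *Amy-d*, and the amylase-related gene *Amyrel*. *Amy-d* has a gene entry and a transcript entry, listed as Amy-d-RA, at the same position, so the 11 entries stand for 10 genes.

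The table comes from RNA-seq, with poly(A) selection, of 6 libraries of whole adult females of strain 14021-0428.25, 3 from food with 0.7% octanoic acid (OA) and 3 from control food without it. OA is the medium chain fatty acid that makes *Morinda* fruit toxic to most fruit flies, while *D. sechellia* feeds on that fruit. Flies were collected at 0 to 3 d of age (the labels also give 1 to 4 d), held on either food for 24 hr and pooled in groups of 10 for each library. All were reared on cornmeal medium at 20 degrees, and both groups are of 1 strain.

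Amylases cut starch into maltose and short chains of glucose, and maltases (alpha-glucosidases) then release glucose from maltose and from the end of such chains. In *D. melanogaster* both enzymes are made in the midgut and act on food in the gut lumen, and amylase expression there is known to be repressed by sugar in the diet. The Mal-A genes of that species lie side by side in a tandem cluster, and its *Amy-p* and *Amy-d* are near-identical neighbours, while *Amyrel* is an older, diverged copy of an amylase.

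The values are FPKM, reads set relative to transcript length and scaled for library depth by geometric normalization, so levels can be compared between genes. The authors' table gives 1 pooled value per group and not per library, so no SD, no interval and no test stands behind any difference below, and the table gives no read count behind an entry. Changes are given as the log2 ratio of OA to control after 1 FPKM was added to each, which understates the change of low genes. A change of at least 1.5-fold on this scale was counted, with no claim that it exceeds the spread between libraries.

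Of 13 markers of female tissue, 2 were matched by name, both high. The unmatched ones include the chorion genes *Cp16*, *Cp18* and *Cp19*, which the study reports as significantly lower on OA food. The yolk protein gene *Yp2* was at 15455 FPKM on OA and 11392 FPKM on control food, and the vitelline membrane gene *Vm32E* was at 718 FPKM on OA and 984 FPKM on control food. Of 23 genes of the male accessory gland and testis, 8 were matched by name, and all 8 were under 1 FPKM in both groups. Entries of structural RNAs, such as rRNA and snoRNA, summed to 93809 FPKM on OA and 284656 FPKM on control food, and this part of the total moves with the comparison. Whether it had a part in the maltase and amylase values was tested only by rescaling, as given below.

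Most maltase and amylase entries were lower on OA food. Of the 11 entries, 10 were lower and 1, *Mal-B2*, was higher, where 42.9% of the 12203 entries with a mean of at least 1 FPKM were lower and 57.1% higher. When both groups were scaled to the same total FPKM, 8 entries remained lower and *Mal-A3* and *Mal-A5* turned slightly positive. That scaling put the median change of all entries at 0.19, and the share of all entries lower under it was not computed. By at least 1.5-fold, 3 of the 11 entries were lower and 0 were higher, against 7.56% and 6.11% of all entries (5.52% and 5.96% when structural RNAs were left out). The 3 entries were *Mal-A7*, *Mal-A1* and *Amy-d*. The median log2 change of the 11 entries was -0.41, while that of all 12203 entries was 0.05. These figures count *Amy-d* by both of its entries. With the *Amy-d* entries summed, which was chosen after seeing the data, 9 of 10 were lower and the median was -0.37. In whole flies, fewer gut cells and less RNA per gut cell cannot be told apart, and which tissue the values come from was not tested.

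**Figure D1:**
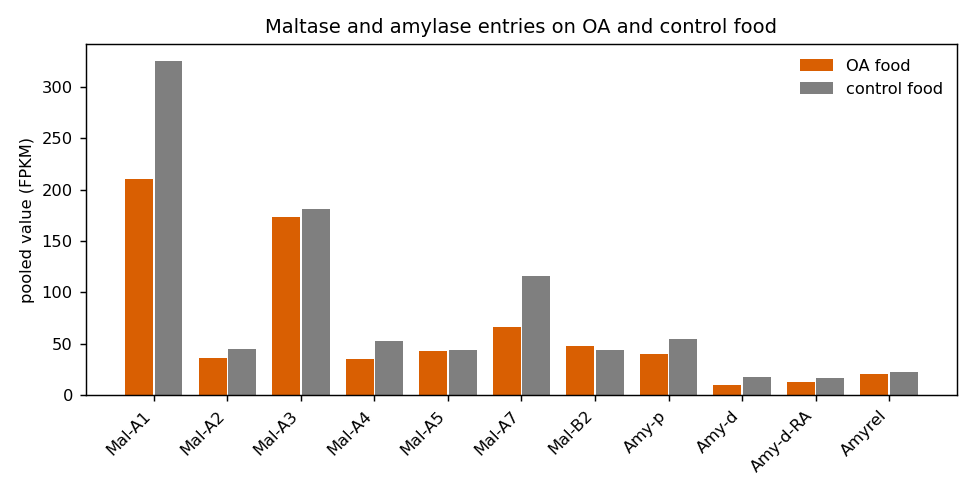
Pooled FPKM of each maltase and amylase entry (vertical axis) in flies on OA food (orange, left) and control food (grey, right), 1 value per group with no error available. *Mal-A1*, *Mal-A3* and *Mal-A7* are the highest entries, and the OA bar is the lower one for every entry but *Mal-B2*.

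*Mal-A7*, the last of the named Mal-A genes, had the largest change of the 11 entries with the pseudocount of 1 FPKM. Without a pseudocount *Amy-d* was at -0.84 and *Mal-A7* at -0.80. *Mal-A7* lies on scaffold 1 from 1999077 to 2001177 and was at 66.3 FPKM on OA food and 116 FPKM on control food. This is a log2 change of -0.79, and 5.21% of all entries with a mean of at least 1 FPKM had a lower one. *Mal-A1*, one of the genes first described in *D. melanogaster* as larval visceral proteins, was the most abundant maltase in both groups. It was at 210 FPKM on OA food and 325 FPKM on control food, a log2 change of -0.63, with 6.87% of all entries below it. In FPKM the difference was larger for *Mal-A1* than for *Mal-A7*, at -115 against -49.3.

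*Mal-A3*, the second most abundant maltase, barely differed between the foods. It was at 174 FPKM on OA food and 182 FPKM on control food, a log2 change of -0.06. *Mal-A5* was at 42.9 FPKM on OA food and 44.3 FPKM on control food, a log2 change of -0.04. For both genes the direction depends on the scaling, so neither can be called lower from these values. *Mal-A2*, which lies between *Mal-A1* and *Mal-A3*, was at 36.3 FPKM on OA food and 45.1 FPKM on control food, a log2 change of -0.31.

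*Mal-A4* lay just short of the 1.5-fold line. It was at 35.0 FPKM on OA food and 52.6 FPKM on control food, a log2 change of -0.57, and it passed the line with a pseudocount of 0.1 FPKM, with none, or with the median change of all entries subtracted. Neighbours in the cluster thus differed in size of change. *Mal-A4*, with the change of -0.57, lies between *Mal-A3* and *Mal-A5*, the pair closest to 0.

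*Mal-B2* is the only entry with a Mal- name outside the cluster, on scaffold 16 from 50509 to 55698. It was at 47.5 FPKM on OA food and 43.7 FPKM on control food, a log2 change of 0.12. This was the only positive change among the entries as deposited. It lay at percentile 58.5 of all entries with a mean of at least 1 FPKM, near the middle of the table.

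**Figure D2:**
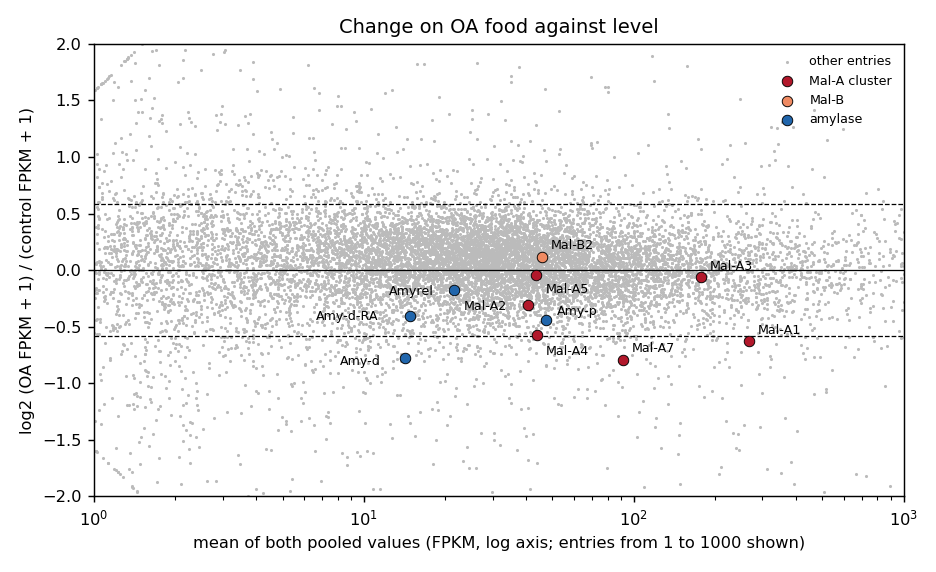
Change of each entry (vertical axis, log2 ratio of OA to control with 1 FPKM added to each) against the mean of both pooled values (horizontal log axis, FPKM), with the Mal-A cluster in red, *Mal-B2* in orange, the amylases in blue and all other entries in grey. Dashed lines mark 1.5-fold, the axes leave out 705 grey entries beyond 1000 FPKM or beyond a log2 change of 2, and *Mal-A7*, *Mal-A1* and *Amy-d* are the marked entries below the lower line.

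The amylase entries were all lower on OA food. *Amy-p*, on scaffold 1 from 10516643 to 10518129, was at 39.9 FPKM on OA food and 54.5 FPKM on control food, a log2 change of -0.44. The gene entry of *Amy-d*, from 10528109 to 10529597 on the same scaffold, was at 10.2 FPKM on OA food and 18.2 FPKM on control food, a log2 change of -0.78. The transcript entry Amy-d-RA, at the same position, was at 12.6 FPKM on OA food and 17.1 FPKM on control food, a log2 change of -0.41. Only the first of this pair passed 1.5-fold, so the call of *Amy-d* rests on which entry is read.

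Summed, the *Amy-d* entries came to 22.8 FPKM on OA food and 35.3 FPKM on control food, a log2 change of -0.61, which passes 1.5-fold. The table holds 1 other gene listed in this way, the odorant binding protein gene *Obp56e*. There the gene entry was at 8.8e-06 FPKM on OA food and 0.355 FPKM on control food, and the transcript entry at 0.435 FPKM on OA food and 5.2e-05 FPKM on control food. These values went opposite ways at 1 position, and whether reads were divided between such entries was not tested. Reads could also be split between *Amy-p* and *Amy-d* where their sequences are alike, so the value of either is uncertain on its own. Over *Amy-p* and both *Amy-d* entries the sum was 62.7 FPKM on OA food and 89.8 FPKM on control food, a difference of -30.2%.

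*Amyrel* lies 478413 bases before *Amy-p*, on scaffold 1 from 10036691 to 10038229. It had the smallest change of the amylase entries, at 20.3 FPKM on OA food and 23.0 FPKM on control food, a log2 change of -0.17. Of all entries with a mean of at least 1 FPKM, 24.6% had a lower change.

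By level, the order on OA food was *Mal-A1*, *Mal-A3*, *Mal-A7*, *Mal-B2*, *Mal-A5*, *Amy-p*, *Mal-A2*, *Mal-A4*, *Amyrel*, Amy-d-RA and *Amy-d*. On control food the first 3 were the same, followed by *Amy-p*, *Mal-A4*, *Mal-A2*, *Mal-A5*, *Mal-B2*, *Amyrel*, *Amy-d* and Amy-d-RA. *Mal-B2* thus stood in place 4 on OA food and in place 8 on control food. The entries in places 4 to 8 spanned only 35.0 to 47.5 FPKM on OA food and 43.7 to 54.5 FPKM on control food, and without values per library it is unknown which of these neighbours differ beyond their spread. *Mal-A1* was above 92.4% of entries listed above 0 on OA food and above 93.6% on control food. *Amy-d*, the lowest gene entry, was above 36.9% on OA food and 47.0% on control food. This low place depends on reading its 2 entries apart. Summed, they came to 22.8 FPKM on OA food and 35.3 FPKM on control food. *Amyrel* was lower than that sum, at 20.3 FPKM on OA food and 23.0 FPKM on control food.

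The 6 named Mal-A genes together came to 564 FPKM on OA food and 765 FPKM on control food, a difference of -26.2%. *Mal-A1* made 57.6% of this difference and *Mal-A7* 24.6%, while *Mal-A3* made 3.93%. The makeup of the cluster's transcripts differed accordingly. *Mal-A1* held 37.2% of the cluster's FPKM on OA food and 42.6% on control food, and *Mal-A7* held 11.8% on OA food and 15.1% on control food. *Mal-A3* held 30.8% on OA food and 23.8% on control food. *Mal-A1* was thus 1.21 times as abundant as *Mal-A3* on OA food and 1.79 times on control food. The 4 amylase entries came to 83.0 FPKM on OA food and 113 FPKM on control food, a difference of -26.5%.

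The named Mal-A genes lie within 22292 bases of scaffold 1, from 1978886 to 2001177. The bases between listed neighbours number 1952 from *Mal-A1* to *Mal-A2*, 469 from *Mal-A2* to *Mal-A3*, 2346 from *Mal-A3* to *Mal-A4*, 844 from *Mal-A4* to *Mal-A5* and 4413 from *Mal-A5* to *Mal-A7*. In this last gap the table lists 2 entries that carry only identifiers and are given no role here. GM21037 was at 3.50 FPKM on OA food and 5.23 FPKM on control food, and GM21038 at 7.83 FPKM on OA food and 14.6 FPKM on control food. The log2 change of GM21038 was -0.82, close to that of *Mal-A7* beside it.

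Beyond both ends of the named Mal-A genes the expressed neighbours changed by less than 1.5-fold, and most were lower. These neighbours, and the 2 entries inside the cluster, carry only identifiers. Whether any of them is an unnamed maltase was not tested, so they cannot be read as genes outside the family. Of the 5 entries before *Mal-A1*, 3 had a mean of at least 1 FPKM, of which 2 were lower and 1 higher, with log2 changes between -0.20 and 0.32. Of the 5 entries after *Mal-A7*, 2 had a mean of at least 1 FPKM, with log2 changes of -0.40 and -0.21. With the 2 entries inside the cluster, 6 of 7 expressed neighbours were lower on OA food and 1 was higher.

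**Figure D3:**
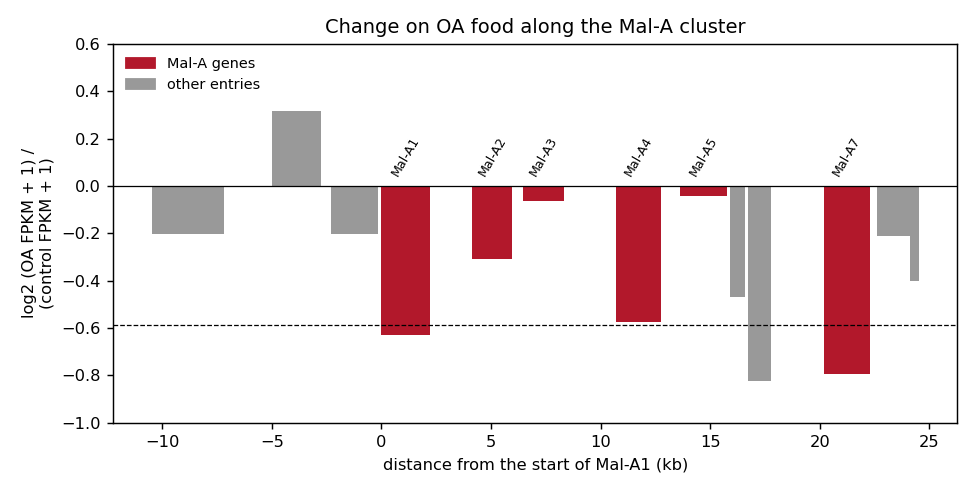
Change on OA food (vertical axis, log2 ratio of OA to control with 1 FPKM added to each) of the entries along the Mal-A cluster, placed by distance from the start of *Mal-A1* (horizontal axis, kb), with bar width equal to the listed span. Mal-A genes are red, other entries with a mean of at least 1 FPKM are grey, and the bars of *Mal-A1*, *Mal-A7* and the grey entry GM21038 cross the dashed 1.5-fold line while *Mal-A3* and *Mal-A5* lie near 0.

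Around the amylases and *Mal-B2* the flanking entries went both ways. Of the 7 expressed neighbours of *Amy-p* and *Amy-d*, 2 were lower and 5 higher, and GM20005 was at 651 FPKM on OA food and 367 FPKM on control food. Near *Amyrel*, 4 of 7 expressed neighbours were lower. Among them, GM20041 was at 114 FPKM on OA food and 188 FPKM on control food, a log2 change of -0.72, which passes 1.5-fold. Of the 5 expressed neighbours of *Mal-B2*, 3 were lower. One of its higher neighbours, GM26528, was at 435 FPKM on OA food and 284 FPKM on control food. Another entry with the same listed span was at 37.4 FPKM on OA food and 65.8 FPKM on control food. Over all 4 places, 26 neighbours had a mean of at least 1 FPKM and a median log2 change of -0.08, between the median of the maltase and amylase entries and that of all entries.

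Few other genes of sugar digestion and use could be matched by name, so this list is thin. Of 27 names for other carbohydrate digestion and sugar uptake, 2 were matched, both for transporters. *Tret1-1*, a trehalose transporter, was at 72.8 FPKM on OA food and 73.1 FPKM on control food, a log2 change that rounds to 0. *Tret1-2*, its paralog, was at 6.28 FPKM on OA food and 11.7 FPKM on control food, a log2 change of -0.81. Of 37 names for sugar use inside cells, 2 were matched and 0 passed 1.5-fold in either direction. *Zw*, glucose-6-phosphate dehydrogenase, was at 91.9 FPKM on OA food and 94.8 FPKM on control food. *Adh*, alcohol dehydrogenase, was at 3180 FPKM on OA food and 2865 FPKM on control food. *Adh* acts on alcohols, so only *Zw* stands for sugar use itself. Digestive proteases and lipases were not analysed here, since 0 of 49 names were matched.

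Levels were also compared with the other entries that carry a gene name of their own. Of 303 such entries with a mean of at least 1 FPKM, 159 were lower and 144 higher, with a median log2 change of -0.02. By at least 1.5-fold, 44 of them (14.5%) were lower and 10 (3.30%) higher, so the share that was lower was above the 7.56% of all entries, and the maltases and amylases are named entries too. The nearest of these in level were found by the distance between log2 of FPKM + 1 on both foods, which are only 2 values per gene. *v*, which encodes tryptophan oxygenase, lay nearest to *Mal-A7*, at 78.2 FPKM on OA food and 96.4 FPKM on control food, at a distance of 0.35. The nearest to *Mal-A1* was the germline gene *nos*, at 204 FPKM on OA food and 256 FPKM on control food, also at 0.35. *cav* lay nearest to both *Amy-p* and *Mal-A4*, at 38.1 FPKM on OA food and 53.0 FPKM on control food. Nearest to the gene entry of *Amy-d* was an entry of the histone gene *His4*, at a distance of 0.08. It was at 9.73 FPKM on OA food and 17.7 FPKM on control food, a log2 change of -0.80.

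Other pseudocounts changed no direction among the 11 entries, and 1 of the scalings did. Scaling both groups to the same total FPKM raised the median change of all entries by 0.14, since structural RNAs took less of the total on OA food. *Mal-A3* then stood at 0.08 and *Mal-A5* at 0.10, each below the shifted median of 0.19. *Mal-A7* stood at -0.65 and *Amy-d* at -0.64, still past 1.5-fold, and *Mal-A1* at -0.48, short of it. Scaled to the same total over entries that are not structural RNAs, all 11 entries kept the direction of the deposited values, and *Mal-A1*, *Mal-A7* and *Amy-d* passed 1.5-fold.

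**Figure D4:**
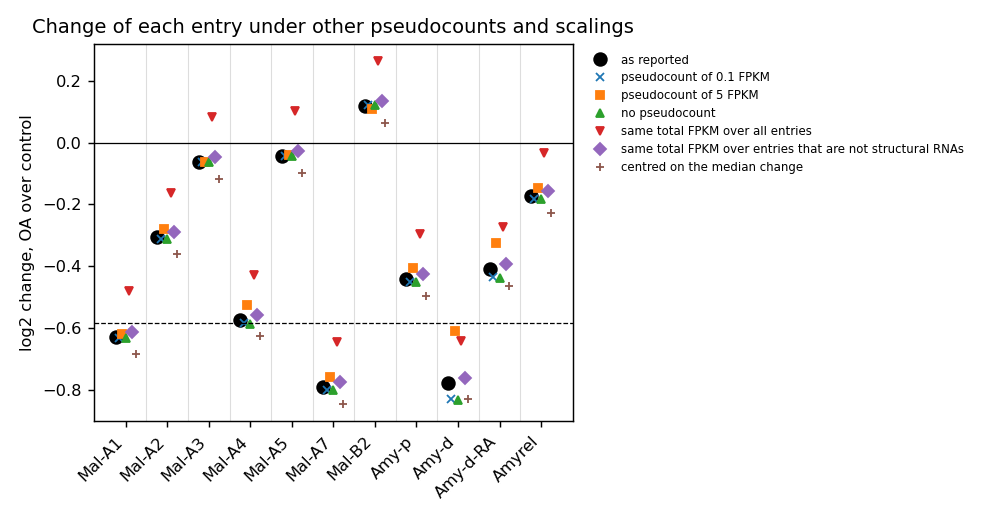
Log2 change on OA food over control food (vertical axis) of each maltase and amylase entry as reported (black) and under 6 other pseudocounts and scalings (coloured marks), with the dashed line at 1.5-fold lower. *Mal-A7* and *Amy-d* stay below that line under every setting drawn, *Mal-A4* lies on either side of it, and *Mal-A3* and *Mal-A5* cross 0 only with the same total FPKM over all entries.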

How the data were processed

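Poly(A) RNA from whole *D. sechellia* females was sequenced in 3 OA and 3 control libraries, grouped by sample title. Reads were checked with FastQC, aligned with Bowtie2 to the *D. sechellia* assembly of Ensembl and quantified with Cuffdiff, which corrected for transcript length and sequence bias after geometric normalization. The deposited FPKM table gives 1 pooled value for each food. The same table holds the authors' own comparison (log2 fold change, test statistic, p-value and q-value), which was not used here. Differences therefore have no test, and bias-corrected pooled FPKM values hold no whole reads from which counts per entry could be recovered. The study gives the mapped reads of each library, which were not used here.

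The change of an entry is the log2 ratio of OA to control with 1 FPKM added to each, counted at 1.5-fold. Background shares are over entries with a mean of at least 1 FPKM. Structural RNAs were told by name. Other genes were named by rule: the 5 entries on either side of each member, the 5 nearest named entries and the genes of fixed lists. The members and lists were chosen with earlier results of these data known. Start positions in the file count from 0, since 66.4% of 5796 short GM spans were whole codons counted so and 17.2% otherwise, and are printed counted from 1. The positions are those of the deposited table, and exons and UTRs were not analysed here. The name table given was for another assembly and was not used. No sequence is printed, because none was at hand for this assembly. Alternatives were other pseudocounts, scalings, filters and folds. Only the calculation of the change and the count past 1.5-fold were checked, on entries given known folds without noise. Such a check cannot show whether a change exceeds the spread between libraries. Python 3.11.15, NumPy 2.4.6, pandas 2.3.3 and Matplotlib 3.10.9 were used.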

Additional observations from a re-analysis of the deposited data

How the results depend on the processing

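No paired analysis was possible because each food has only 1 pooled value. For the same reason no fit without a replicate was run. Under 6 other pseudocounts and scalings, between 2 and 4 entries were lower by at least 1.5-fold, between 8 and 10 were lower by any amount and 0 were higher by at least 1.5-fold. For the scalings, the matching shares of all entries were not computed, so those counts have no background beside them. At 2-fold, 0 of the 11 entries were lower, against 4.24% of all entries. At 1.2-fold, chosen after seeing the data, 7 were lower, against 18.2%. With the *Amy-d* entries summed, also chosen after seeing the data, 3 of 10 entries passed 1.5-fold. The background share of 7.56% became 5.52% without structural RNAs, 6.62% at a mean of at least 10 FPKM, 6.18% with no filter and 8.65% with a pseudocount of 0.1 FPKM. The share of higher entries, 6.11%, became 3.59% at a mean of at least 10 FPKM and 2.58% at 2-fold. The pooled values give neither the read count behind an entry nor the spread between libraries, which limits every value here.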
